A study of Danio rerio with 26 samples.

Results

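Zebrafish embryos at the 1-cell stage (0 hours post fertilisation, hpf) were compared with early gastrula embryos at 6 hpf, to measure how far the transcripts loaded into the egg had been replaced by the time gastrulation began. The comparison used 6 of the 26 libraries of the series, 3 at 0 hpf and 3 at 6 hpf, and all 32520 genes of the embryo table. Each library held 20 dechorionated whole embryos, and the genotype of both groups was labelled AB, TF and TLF, which are laboratory strains, with no treatment named. Libraries were made from 500 ng of ribosomal-RNA-depleted total RNA with no poly(A) selection named, so tail length did not decide by design which RNAs were sampled. The series also holds libraries of 2 and 4 hpf embryos, used below for timing, and of oocytes, used below for origin.

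In fish, as in most animals, the first divisions run on RNA and protein made by the mother. Transcription from the embryo's own genome begins in earnest during the blastula stages, and stored maternal mRNAs are shortened at their tails and degraded over the same hours. By early gastrulation the embryo has an outer sheet, the enveloping layer, a yolk syncytial layer that feeds on the yolk, and a blastoderm in which mesoderm, endoderm and ectoderm are being set apart.

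Values are TPM, a length-corrected unit of transcript abundance in which each library sums to 1000000. A value is thus relative to the rest of its library and says nothing of the RNA content of an embryo. Fewer cells of a type and less RNA per cell cannot be told apart in whole-embryo libraries. Of the 32520 genes, 16328 reached 1 TPM in at least 3 of the 12 embryo libraries and were tested by limma on log2(TPM + 1). A gene is said to have risen or fallen if its Benjamini-Hochberg adjusted p was under 0.05 and its change was at least 2-fold, and log2 changes are 6 hpf minus 0 hpf with their SE. The replicates are described as biological, each a separate pool of embryos, and p-values measure the spread between such pools. TPM keeps no read depth, so no counting error is given and genes near 1 TPM are the least precise.

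Libraries of 1 time agreed closely, with Pearson's r across the tested genes between 0.982 and 0.989, while r between a 0 hpf and a 6 hpf library was 0.583 to 0.607. One library stood apart in a few entries. In 0 hpf replicate 2, 4 clone-named entries were far above the other libraries of that time (FO704772.3 at 16980 TPM against 3480 and 2448, and CT583728.1 at 12018 against 2025 and 1830, with CT583728.7 and BX537263.3 alike), and the largest mitochondrial genome entry was lower, at 17236 TPM against 33986 and 31109. Leaving that library out gave 2613 rises and 8502 falls, against 2644 and 8447 with it. Markers of cells that neither group should hold were near 0: the summed level of 8 follicle cell genes was 0.42 to 0.77 TPM at 0 hpf and 0.25 to 0.54 TPM at 6 hpf, and that of 6 blood genes was 0.22 to 0.81 and 0.26 to 0.35 TPM. Of 4 sperm genes the summed level was 3.24 to 5.98 TPM at 0 hpf and 0.62 to 1.44 TPM at 6 hpf, most of it from odf3b.

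Between the egg and the early gastrula, most genes lost share of the pool and a smaller set gained it. As deposited, 8447 of 16328 genes fell (51.7%) and 2644 rose (16.2%), and the median log2 change of all tested genes was -1.06. Because TPM is a share, a few abundant RNAs that rise push all others down. After median-of-ratios scaling, which sets the typical gene to no change, the median was -0.06, 4297 genes fell (26.3%) and 4700 rose (28.8%). Rises therefore made up 23.8% of the calls as deposited and 52.2% after that scaling. That scaling raised changes throughout, by less for genes near 1 TPM, so all 2644 rises held under both scalings by construction. Falls that held under both numbered 4297, and 0 genes fell under one and rose under the other. The shift was too small to turn a 2-fold fall into a 2-fold rise, so that 0 supports nothing further. Changes below are given as deposited, and those that do not hold relative to the typical gene are named.

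The pool itself was compared without calling single genes. The share of TPM that a library had in common with the mean of the 0 hpf pool was 91.3%, 92.8% and 93.4% for the 0 hpf libraries, each set against the other 0 hpf libraries, and 61.5%, 64.5% and 62.4% for the 6 hpf libraries. The groups did not overlap (exact permutation p = 0.1, the smallest that 3 against 3 libraries can give). At 2 hpf the share was 93.9% ± 0.401 (SD, n = 3) and at 4 hpf 75.7% ± 3.20. Part of what stayed in common was small structural RNA. With structural, mitochondrial and miR-430 RNAs left out and the rest rescaled, the 6 hpf libraries had 51.0%, 53.8% and 52.7% in common with the egg.

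The pool also became more concentrated. At 0 hpf, 333, 298 and 331 genes together held 50% of TPM, and at 6 hpf 100, 108 and 97 genes did (exact permutation p = 0.1). Leaving out those RNAs, the numbers were 1031 ± 117 and 215 ± 34.8. Genes at 10 TPM or more numbered 9151 ± 83.3 at 0 hpf and 5988 ± 361 at 6 hpf. Genes at 1 TPM or more numbered 14236 ± 18.04 and 13388 ± 323.

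Sorting the genes by how they moved shows which classes made up the 6 hpf pool. Without structural, mitochondrial and miR-430 RNAs, the 8447 genes that fell went from 55.2% ± 1.48 of TPM to 11.5% ± 0.84. The 1118 genes already at 1 TPM or more in a 0 hpf library that rose went from 10.4% ± 0.51 to 40.7% ± 1.23. Genes at 1 TPM or more in a 0 hpf library that were not called went from 34.2% ± 1.18 to 42.7% ± 0.19, the largest class at 6 hpf. Genes under 1 TPM in every 0 hpf library went from 0.200% to 5.10% ± 0.33. Most of the gain was thus in genes at 1 TPM or more in a 0 hpf library, and genes under 1 TPM in the egg made up a small part of the 6 hpf pool. This limit does not separate RNA kept from the egg from RNA made later. A gene with little RNA in the egg and much at 6 hpf, such as apoeb, counts among those above it. These shares describe the calls and are not a separate test of them.

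**Figure D1:**
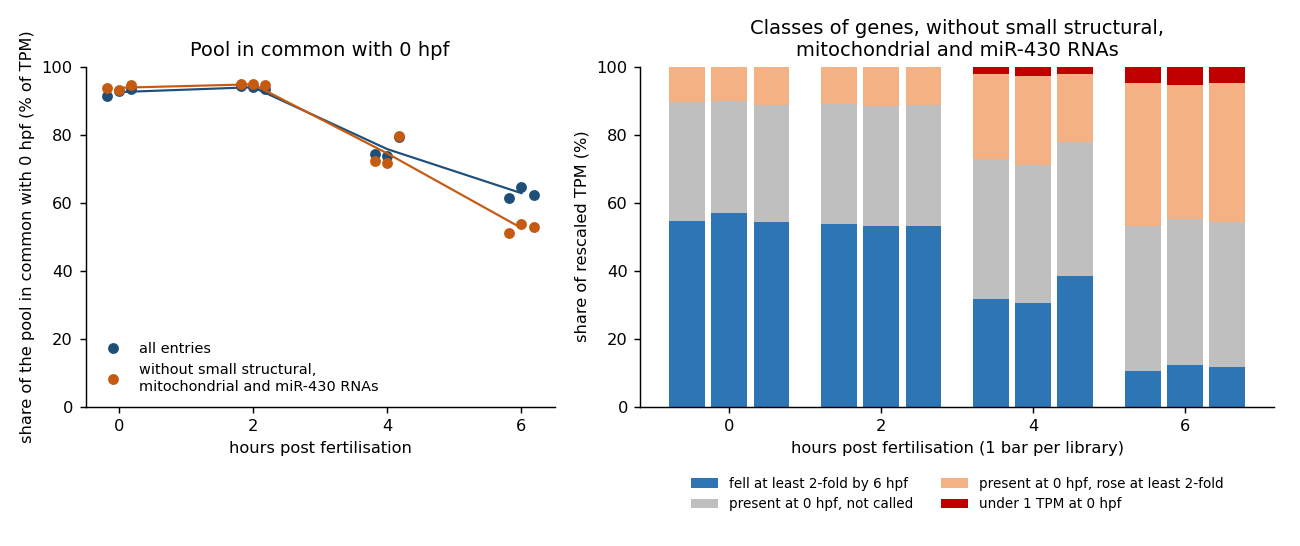
Left, share of TPM that each library had in common with the 0 hpf pool, in percent, against hours post fertilisation, with 1 point per library and a line through the means. Right, share of rescaled TPM held by 4 classes of genes, 1 bar per library, where the falling class shrinks from 55.2% to 11.5% and genes under 1 TPM at 0 hpf reach 5.10%.

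Small structural RNAs held a large part of both pools and did not move together. The entries left out above made up 30.0% ± 1.60 of TPM in the egg and 39.1% ± 0.27 of it at 6 hpf. Most of this was 7SL RNA, the RNA core of the signal recognition particle that directs ribosomes to the endoplasmic reticulum. The 81 entries named as its copies summed to 24.0%, 24.1% and 24.8% of TPM at 0 hpf and to 28.0%, 26.3% and 27.7% at 6 hpf. Reads can be split among these copies, so their sum is used. The 10 most abundant entries of the table with a log2 change under 0.5 in size were all 7SL copies.

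The small nuclear RNAs were low in the egg and higher at 6 hpf. Class sums were compared by exact permutation of the libraries, for which 0.1 is the smallest p, so only the single entries below have a limma test. 7SK RNA, which holds the elongation factor P-TEFb in an inactive complex, stood at 160, 201 and 252 TPM in the 0 hpf libraries and at 17072, 15964 and 14796 TPM at 6 hpf (log2 change 6.30 ± 0.22, limma adjusted p = 4.05e-11). No 6 hpf library was within an order of magnitude of a 0 hpf library. U2, the small nuclear RNA that pairs with the intron branch point, summed over its copies to 0.0675% ± 0.0019 of TPM at 0 hpf and 1.24% ± 0.13 at 6 hpf. U1, which pairs with the intron's start, went from 0.0513% ± 0.0097 to 0.357% ± 0.039, and U4 from 0.0257% ± 0.0050 to 0.138% ± 0.018. For U2, U1, U4 and U5 every 6 hpf library lay above every 0 hpf library. Timing differed among them. U1 was at 0.435%, 0.558% and 0.307% in the 4 hpf libraries, which overlapped its 6 hpf values of 0.397%, 0.355% and 0.318%. 7SK in contrast averaged 0.198% at 4 hpf and 1.59% at 6 hpf. U6 averaged 0.00158% of TPM or less at both times and gave an exact permutation p of 0.4. RNase P and MRP RNAs, which process tRNA and ribosomal RNA precursors, were at 0.530% ± 0.034 and then 1.05% ± 0.051, and snoRNAs, which guide modification of ribosomal RNA, at 0.212% ± 0.025 and then 0.386% ± 0.0032, both without overlap of the groups (exact permutation p = 0.1).

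The 13 mRNAs of the mitochondrial genome made up 1.13% ± 0.19 of TPM in the egg and 1.12% ± 0.17 of it at 6 hpf, with overlapping libraries (exact permutation p = 0.9, n = 3 and 3). None of the 13 rose or fell as deposited, and 9 rose relative to the typical gene. The other entries of the mitochondrial genome made up 4.38%, 2.04% and 3.73% of TPM in the 0 hpf libraries and 4.57%, 6.40% and 5.77% at 6 hpf, without overlap (exact permutation p = 0.1). The lowest of these values is that of 0 hpf replicate 2, the library set apart above. Entries for the gene copies of miR-430, a microRNA that marks maternal mRNAs for clearance in zebrafish, were listed at 0 in all 0 hpf libraries. They made up 3.51% of the 4 hpf pool and 0.0254% ± 0.0033 of the 6 hpf pool, a peak between the times compared here. Total RNA read at 75 bp does not show the mature microRNA apart from its precursors. These values are thus no measure of how much mature miR-430 was present.

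**Figure D2:**
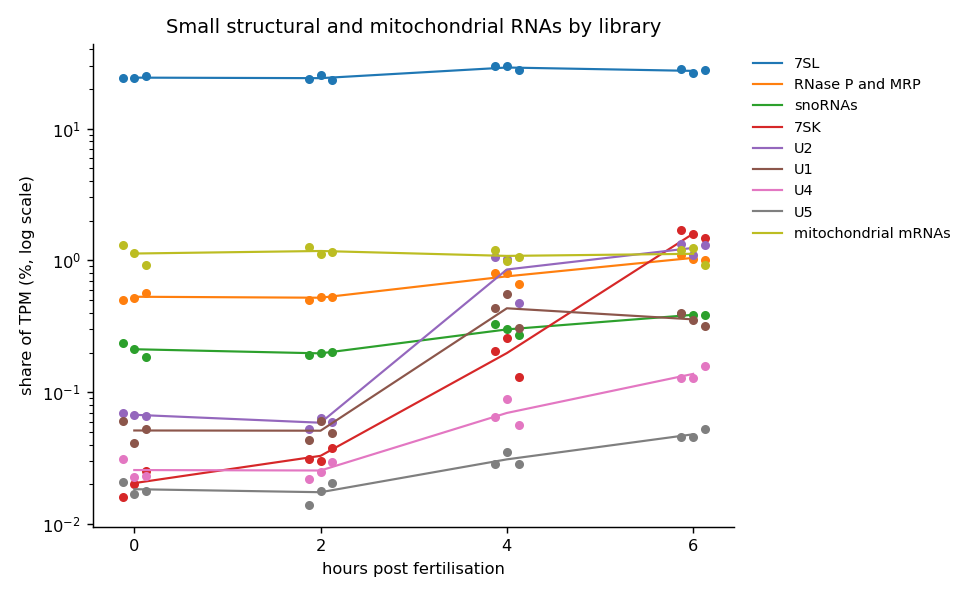
Share of TPM, in percent on a log scale, of classes of small structural RNA and of mitochondrial mRNAs, against hours post fertilisation, with 1 point per library and lines through the means. 7SL stays between 23.4% and 29.8%, while 7SK climbs from 0.0205% to 1.59% and U2 from 0.0675% to 1.24%.

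Oocyte and maternal-effect genes were the most depleted of the lists examined. Of 25 tested members, 23 fell and 2 rose, against 51.7% and 16.2% of all genes tested, and the median log2 change was -4.45. Relative to the typical gene 18 fell and 2 rose. Their summed level went from 11346 ± 571 to 1239 ± 45.3 TPM. The risers were ybx1, an RNA-binding protein that also works in somatic cells (log2 change 2.28 ± 0.09), and spaca4l, which the reference names lye and whose place among oocyte genes is therefore uncertain.

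The 10 largest falls were in genes that the egg held at 245 TPM or more on average and the early gastrula at 15.3 TPM or less. The claudin gene cldng, whose family builds tight junctions, was at 1731, 1926 and 1880 TPM at 0 hpf and at 7.95, 9.18 and 9.40 TPM at 6 hpf (log2 change -7.55 ± 0.19, limma adjusted p = 7.41e-12). btg4, which in mouse eggs brings the CCR4-NOT deadenylase to maternal mRNA, went from 857, 982 and 952 TPM to 3.59, 4.10 and 4.98 TPM (log2 change -7.48 ± 0.23). A second claudin, cldnd, was the most abundant of the 3, at 2051, 2365 and 2209 TPM against 12.2, 14.9 and 18.9 TPM. In each case the lowest 0 hpf library was more than 2 orders of magnitude above the highest 6 hpf library. The other 7 of the 10 were the clone-named CR790368.1 (-6.85 ± 0.17), lipg, a lipase gene (-6.78 ± 0.20), zgc:162879 (-6.71 ± 0.26), cdca9 (-6.54 ± 0.23), sinup (-6.52 ± 0.18), kpna7, an egg-type importin alpha (-6.49 ± 0.22), and zar1l, a relative of the egg RNA-binding protein Zar1 (-6.45 ± 0.21). mos, the kinase that holds the egg in meiotic arrest, fell by 6.12 ± 0.16 and was at 1.42, 2.07 and 2.52 TPM at 6 hpf. All of these also fell relative to the typical gene.

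The egg envelope and the germ line followed. Of 19 tested genes of the zona pellucida families, which build the envelope, 16 fell and 0 rose as deposited, and 10 fell relative to the typical gene (median log2 change -2.60, or -1.27 after that scaling). The largest fall was that of zp3f.1, from 358, 398 and 399 TPM to 17.6, 17.3 and 20.2 TPM. zp2.3 was among the 3 not called, at 64.2, 68.8 and 66.4 TPM and then 35.7, 39.3 and 33.1 TPM. Among 24 germ plasm and piRNA pathway genes there were 19 falls and 0 rises. The median log2 change of the list was -3.32, and relative to the typical gene it had 15 falls and 1 rise. buc, the organiser of the germ plasm, went from 627, 653 and 652 TPM to 6.26, 9.36 and 10.4 TPM (log2 change -6.09 ± 0.20). The piRNA pathway genes asz1 (-4.97 ± 0.17) and tdrkh (-4.91 ± 0.16) fell next most. Germ plasm mRNAs are kept in a few cells of the embryo, and a whole-embryo share does not show where the remaining RNA was.

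Among 60 genes that shorten, degrade or silence mRNA, 27 fell as deposited (45.0%, against 51.7% of all genes) and 4 rose (6.67%, against 16.2%). Their median log2 change was -0.90, against -1.06 for all genes tested. Relative to the typical gene 12 fell and 21 rose, so the list as a whole has no direction that holds under both scalings. The members that fell most did so under both: btg4, lsm1, a part of the decapping activator ring (-4.92 ± 0.18), and cpeb1b, which controls cytoplasmic polyadenylation in oocytes (-4.26 ± 0.15). btg1, an antiproliferative adaptor of the same family as btg4, rose from 4.13, 3.32 and 3.81 TPM to 30.0, 35.8 and 31.8 TPM (log2 change 2.82 ± 0.12). igf2bp1, an mRNA-stabilising protein, rose from 33.1, 32.3 and 27.3 TPM to 124, 164 and 138 TPM.

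Metabolic genes lost share unevenly. The glycolysis list, with 20 tested genes, had 14 falls and 1 rise, and 11 of its genes fell relative to the typical gene. Its median log2 change was -2.36. gapdh, the glyceraldehyde phosphate dehydrogenase, went from 860, 1044 and 986 TPM to 176, 141 and 159 TPM. hk2, a hexokinase, fell by 4.01 ± 0.16, and tpi1a, the triose phosphate isomerase, by 4.07 ± 0.13. The largest fall in the list was that of pgk1 (-4.63 ± 0.15), but the reference pairs its identifier with PGK2, so its name is uncertain. The 1 riser was hk1, from 0.15 TPM or less to 4.51 to 7.38 TPM. Nuclear genes of oxidative phosphorylation differed from these: 50 of 85 fell and 2 rose as deposited, whereas 9 fell and 13 rose relative to the typical gene. Their median log2 change was -1.18, close to the -1.06 of all genes tested.

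The endoplasmic reticulum and DNA replication lists had medians close to the -1.06 of all genes tested. For folding and secretion genes 21 of 38 fell and 3 rose (median -1.23), and relative to the typical gene 8 fell and 10 rose. Chaperones led the falls, with hyou1 from 207, 210 and 197 TPM to 9.96, 16.2 and 15.8 TPM. hsp90b1, the chaperone of the same compartment related to Hsp90, went from 541, 558 and 547 TPM to 36.2, 42.0 and 42.3 TPM. The stress-response factors atf4a (3.57 ± 0.14) and atf4b (4.12 ± 0.14) rose. For replication genes 28 of 45 fell and 2 rose (median -1.19), and relative to the typical gene 11 fell and 10 rose. The sharpest fall in that list was slbp2, an egg form of the protein that binds histone mRNA, from 449, 467 and 450 TPM to 3.72, 10.1 and 7.45 TPM. Among chromatin genes, dnmt1, the maintenance DNA methyltransferase, went from 495, 479 and 479 TPM to 20.8, 30.7 and 24.3 TPM (-4.23 ± 0.18), whereas the de novo enzymes dnmt3ba (1.19 ± 0.18) and dnmt3bb.2 (1.18 ± 0.14) rose.

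Apolipoprotein and keratin genes were among the largest rises. apoeb, which encodes apolipoprotein E, was at 2.37, 1.85 and 1.19 TPM in the egg and at 2472, 2336 and 2236 TPM at 6 hpf (log2 change 9.73 ± 0.25, limma adjusted p = 8.75e-12). krt18a.1, a keratin of the enveloping layer, went from 0.69, 0.35 and 0.20 TPM to 1146, 1256 and 1083 TPM (9.70 ± 0.31). The egg libraries were under 3 TPM for both of these and the 6 hpf libraries were above 1000 TPM, with no overlap. The unnamed gene si:ch211-152c2.3 was listed at 0 in all 0 hpf libraries and stood at 501, 497 and 509 TPM at 6 hpf. Others of the 10 largest rises were ctsll, a cathepsin L-like protease (8.77 ± 0.29), stm, an otolith matrix gene (8.57 ± 0.35), krt4 (8.56 ± 0.50), the small heat shock gene hspb1 (8.42 ± 0.20), apoc1 (8.30 ± 0.34) and akap12b, a kinase scaffold (8.19 ± 0.19).

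Many genes of the lists that follow were under 1 TPM in every 0 hpf library. Such a gene entered the test through later libraries in which it was higher, so its rise was largely fixed by the filter on low values, and the counts and medians of these lists describe the tested members and support nothing further. For that reason the genes at 1 TPM or more in a 0 hpf library are counted apart below as held by the egg. Of 27 genes of the yolk syncytial layer and of lipoproteins in the table, 22 were under 1 TPM at 0 hpf and 10 were not tested. Of the 17 tested 15 rose and 0 fell (median log2 change 5.58), and of the 5 held by the egg 3 rose. The list's summed level went from 818 ± 34.7 to 5978 ± 459 TPM, but a single member averaging 790 TPM made up most of the 0 hpf sum. gata6, an endodermal and yolk syncytial factor, went from 0.42, 0.57 and 0.42 TPM to 136, 122 and 119 TPM, and hnf4a, a regulator of lipid genes, from 0.11, 0.02 and 0.11 TPM to 100.3, 108.7 and 102.5 TPM. Of 27 tested genes of the enveloping layer and epidermis, from 30 in the table, 23 rose and 3 fell (median 5.56). Of the 27 tested 15 were under 1 TPM at 0 hpf, and of the 12 held by the egg 8 rose and 3 fell. None of the 3 falls, epcam and klf6a among them, was called relative to the typical gene. The 22 keratin genes together went from 10.4 ± 2.32 to 4588 ± 374 TPM. Among them krt8 and krt18a.1 were the most abundant at 6 hpf, krt8 at 1014, 1099 and 914 TPM. grhl3, a factor that drives epithelial differentiation, went from 0.34, 0.33 and 0.51 TPM to 49.8, 71.8 and 59.3 TPM.

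Most regulators that pattern the blastoderm were near 0 in the egg. Of 22 dorsal organizer genes listed 20 were tested, and 15 of those were under 1 TPM at 0 hpf. All 20 rose as deposited, and so by construction also after scaling (median log2 change 3.43), the 5 held by the egg among them. chrd, the BMP antagonist of the organizer, went from 0.05 TPM or less to 50.8, 67.2 and 55.6 TPM, and noto, a notochord factor, from 0.18 TPM or less to 67.7, 75.1 and 70.9 TPM. The largest rise of that list was sp5l, a Wnt-responsive factor, at 167, 179 and 153 TPM at 6 hpf (7.36 ± 0.16). Of 25 tested mesoderm and endoderm regulators, from 28 in the table, 23 rose and 2 fell (median 4.38). Of the 25 tested 21 were under 1 TPM at 0 hpf, and of the 4 held by the egg 2 rose and 2 fell. tbxta, the Brachyury factor of the mesoderm, went from 0.30, 0.20 and 0.04 TPM to 244, 275 and 260 TPM (7.79 ± 0.31), and tbx16, its partner in the trunk mesoderm, reached 138, 176 and 155 TPM. sox32, which specifies endoderm, reached 77.6, 78.8 and 78.8 TPM. The 2 that fell were eomesa, a maternal T-box factor, from 49.55, 46.27 and 52.95 TPM to 4.17, 5.11 and 5.56 TPM, and mespba, which did not hold relative to the typical gene.

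The signalling lists held both rises and falls. For BMP and ventral genes 16 of 25 tested rose and 3 fell (median 2.22), and of the 13 held by the egg 4 rose and 3 fell. The ventral repressors vox, vent and ved, targets of BMP and Wnt, went from 0.34 TPM or less in every 0 hpf library to 126, 143 and 142 TPM, 40.2, 53.5 and 57.6 TPM, and 260, 297 and 271 TPM. Those that fell were the receptor gene bmpr1ba (-4.40 ± 0.14), the ligand gdf6a (-3.36 ± 0.18), and id2a, which did not hold relative to the typical gene. For the Wnt and Fgf pathways 20 of 35 tested rose and 6 fell (median 1.54), and of the 23 held by the egg 8 rose and 6 fell. Among the risers were dusp6, a feedback inhibitor of Fgf signalling, at 75.0, 91.0 and 87.6 TPM at 6 hpf, and fgfr4, a receptor gene, at 63.0, 95.7 and 70.8 TPM. sybu and hwa, maternal genes of dorsal determination, fell by 3.99 ± 0.23 and 2.77 ± 0.18. For the Nodal pathway 5 of 16 tested rose and 6 fell (median -0.28), while relative to the typical gene 8 rose and 2 fell. Of the 13 held by the egg 2 rose and 6 fell as deposited. The Nodal inhibitors lft1 and lft2, induced by the signal they block, rose, lft1 from 0.13 TPM or less to 31.6, 36.9 and 32.5 TPM and lft2 by 4.14 ± 0.16. gdf3, the maternal partner of the Nodal ligands, went from 450, 418 and 362 TPM to 78.0, 84.3 and 78.2 TPM (-2.33 ± 0.10), and relative to the typical gene its change of -0.99 was just under 2-fold.

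Of 28 tested genes for gastrulation movements and adhesion 21 rose and 2 fell (median 2.99), and of the 17 held by the egg 10 rose and 2 fell. apela, the ligand of the apelin receptors, reached 141, 160 and 155 TPM from 0.61 TPM or less, and its receptor gene aplnrb 71.1, 80.04 and 69.5 TPM from 0.07 TPM or less. Both falls were adhesion genes that the egg held in quantity: epcam, at 1291, 1285 and 1234 TPM and then 241, 309 and 274 TPM, and cdh1, at 342, 327 and 326 TPM and then 129, 198 and 150 TPM. Neither was called relative to the typical gene, where cdh1 changed by 0.27, and cdh1 was at -0.94, under 2-fold, without 6 hpf replicate 1.

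Genome activator and pluripotency genes moved in both directions, and their summed level went from 1078 ± 39.4 to 1652 ± 126 TPM. Of 14 activator and pluripotency genes 9 rose and 3 fell, also 3 relative to the typical gene, and of the 7 held by the egg 2 rose and 3 fell. nanog, supplied by the egg, went from 338, 347 and 363 TPM to 46.0, 66.6 and 71.7 TPM (-2.51 ± 0.13) after 532 TPM at 4 hpf. sox19b, the maternal SoxB1 factor, fell by 3.45 ± 0.13, and klf17, an enveloping layer and hatching gland factor, rose from 0.69 TPM or less to 86.1, 103.3 and 95.0 TPM.

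**Figure D3:**
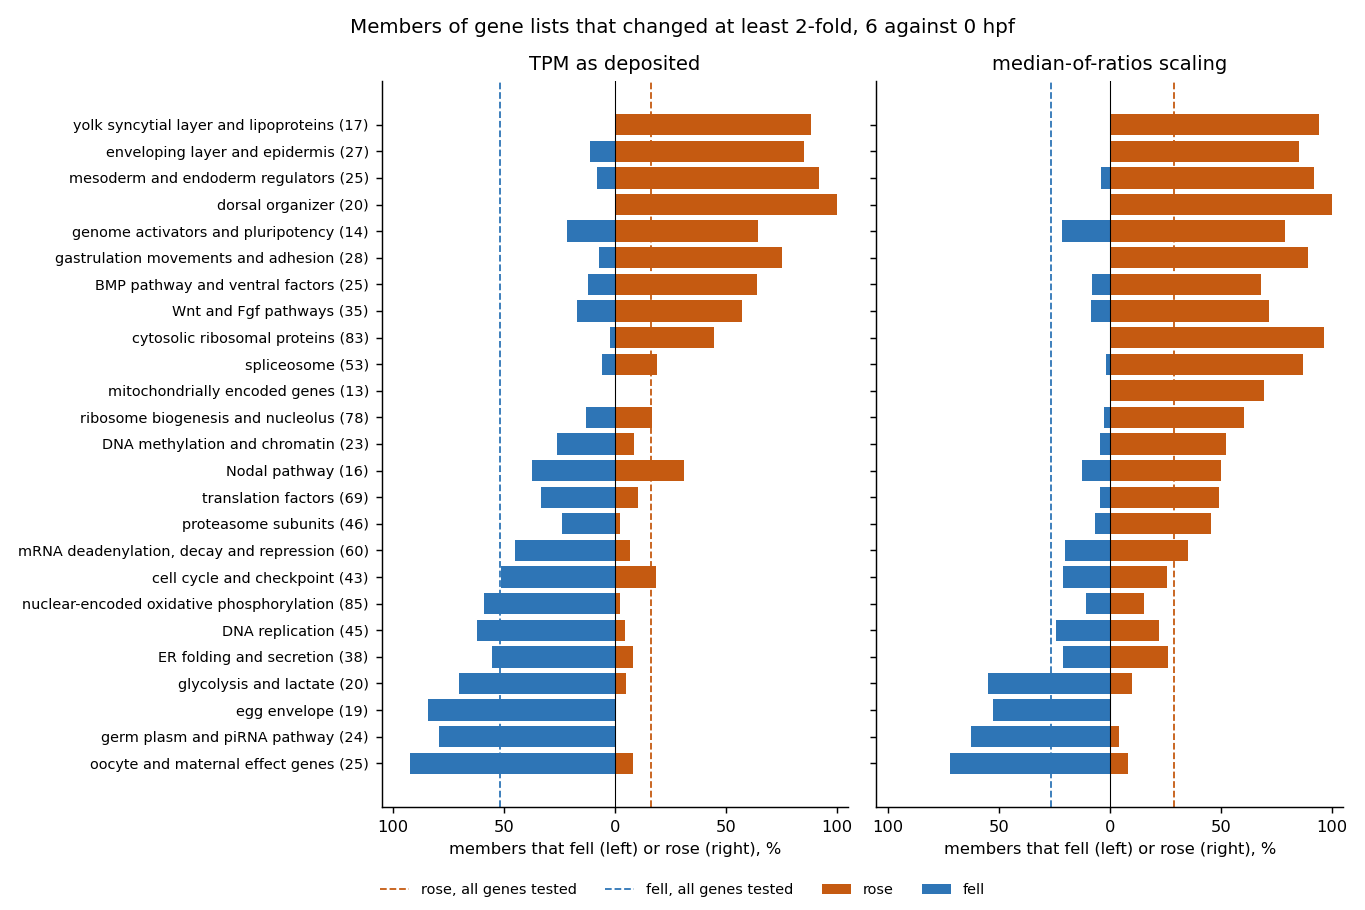
Percent of the tested members of each gene list that fell (left of 0) or rose (right of 0) at least 2-fold between 0 and 6 hpf, as deposited and after median-of-ratios scaling, with the number tested in brackets and dashed lines for all genes tested (16.2% rose and 51.7% fell as deposited, 28.8% and 26.3% after scaling). In both panels the oocyte, egg envelope and germ plasm lists have a larger share of falls than all genes. The mesoderm, organizer and enveloping layer lists show many rises, but these are not comparable with the line for all genes. Of their tested members 21 of 25, 15 of 20 and 15 of 27 were under 1 TPM at 0 hpf. The rises of such genes were largely fixed by the filter on low values. Rises in the proteasome and translation factor lists are below the line for all genes as deposited and above it after scaling.

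Ribosomal protein genes gained share, and translation factors as a list had no direction that held under both scalings. Among 83 cytosolic ribosomal protein genes there were 37 rises and 2 falls, or 80 and 0 relative to the typical gene. The median log2 change was 0.88. Their summed level went from 17472 ± 681 to 31868 ± 1458 TPM. rpl30, of the large subunit, went from 130, 128 and 110 TPM to 401, 402 and 381 TPM. The 2 falls were rps8b, at about 2 TPM or less, and a second rpl37 identifier that the reference pairs with COA1. eef1a1l1, which carries aminoacyl-tRNA to the ribosome, held 99.9% of its family at 0 hpf and went from 913, 1019 and 998 TPM to 6997, 6914 and 6642 TPM (2.81 ± 0.10), the highest level among the translation factors listed. As a list the 69 translation factors gave 7 rises and 23 falls as deposited, and 34 rises and 3 falls relative to the typical gene.

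Counts in other housekeeping lists also depended on the scaling. Of all genes tested 16.2% rose and 51.7% fell as deposited, and 28.8% and 26.3% did so relative to the typical gene. Of 53 spliceosome genes 10 rose (18.9%) and 3 fell (5.66%), or 46 and 1 relative to the typical gene. Of 78 genes of ribosome biogenesis 13 rose (16.7%) and 10 fell (12.8%), or 47 and 2. The rises of both lists as deposited were thus near the share of all genes. Of 46 proteasome genes 1 rose (2.17%) and 11 fell (23.9%), or 21 and 3. In each of these lists the median was above that of all genes, at 0.55 for the spliceosome, -0.17 for ribosome biogenesis and -0.37 for the proteasome against -1.06. srsf5a, a splicing factor, rose most among spliceosome genes, from 29.5, 19.3 and 22.2 TPM to 322, 358 and 362 TPM, and dimt1l, whose human relative methylates ribosomal RNA, rose most among ribosome biogenesis genes, from 1.16, 1.28 and 1.46 TPM to 34.0, 40.6 and 34.1 TPM.

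The cell cycle list moved like the genes tested as a whole. Of 43 tested genes 22 fell (51.2%, against 51.7% of all genes) and 8 rose (18.6%, against 16.2%), with a median of -1.09 against -1.06. Relative to the typical gene 9 fell and 11 rose. ccnb1, the main mitotic cyclin of the egg, went from 1981, 2099 and 2043 TPM to 429, 432 and 469 TPM, a fall of 2.20 ± 0.11 that did not reach 2-fold relative to the typical gene. ccnd1, which couples growth signals to the start of replication, went from 2.20, 2.58 and 1.27 TPM to 287, 360 and 316 TPM (6.76 ± 0.23). gadd45ba, a stress-induced gene, was listed at 0 in all 0 hpf libraries and stood at 36.6, 39.8 and 35.6 TPM at 6 hpf.

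Within gene families, the share that each member holds does not depend on how libraries are scaled. In some families, though not in all, such shares showed exchanges of an egg form for an embryonic form. In the SoxB1 family, sox19b held 99.6% ± 0.10 of the family's TPM at 0 hpf and 6.55% ± 0.66 at 6 hpf, when sox19a held 52.8% ± 1.99, sox3 31.1% ± 2.32 and sox2 9.51% ± 0.36. The family's summed level changed much less, from 347 ± 3.62 to 472 ± 44.0 TPM. Among claudins, cldnd and cldng held 51.7% ± 0.74 and 43.3% ± 0.39 in the egg and 3.56% ± 0.79 and 2.05% ± 0.16 at 6 hpf, when cldne, an enveloping layer claudin, held 36.7% ± 1.16. The summed level of the claudins did not stay level, going from 4268 ± 262 to 432 ± 46.4 TPM.

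In some cell cycle families the shares shifted too. wee2, the Wee1-type kinase of oocytes, held 93.5% ± 0.45 of its pair in the egg and 17.6% ± 2.64 at 6 hpf, the rest being wee1. ccna1, the germline A-type cyclin in mammals, held 81.9% ± 0.27 and then 28.3% ± 3.14, the rest being ccna2. The summed levels of both families fell, from 279 ± 9.21 to 121 ± 15.3 TPM for the Wee1 kinases and from 1443 ± 39.4 to 247 ± 28.3 TPM for the A-type cyclins. A larger share in these families is thus not by itself a rise in level. ccne2 rose from 0.729% ± 0.20 to 47.1% ± 1.46 of E-type cyclin TPM beside ccne1. In contrast cdc25b, the Cdc25 phosphatase, held 98.9% and 99.2% of its pair at both times. B-type cyclins also kept their order, with ccnb1 at 70.1% ± 0.81 and 67.6% ± 1.18. The minor members did shift, ccnb2 from 27.0% ± 0.62 to 17.5% ± 0.34 and ccnb3 from 2.88% ± 0.23 to 15.0% ± 0.96.

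In chromatin and RNA-binding families the leading member changed in some and stayed the same in others. h2af1al, an egg variant among the 5 genes whose symbols begin with h2a, held 54.6% ± 0.64 of that family's TPM at 0 hpf and 0.686% ± 0.11 at 6 hpf, when h2ax held 77.7% ± 1.47, at near-equal summed levels of 3488 ± 224 and 3515 ± 310 TPM. h1m, the maternal linker histone, went from 808, 820 and 812 TPM to 31.9, 37.8 and 39.8 TPM and still held 82.1% ± 1.26 of the linker histone TPM listed. pabpc1l, the egg poly(A)-binding protein, went from 36.8% ± 2.17 to 2.88% ± 0.48 of its family. Its relative pabpc1a led at both times, with 62.9% ± 2.14 and 96.7% ± 0.44. npm2a and npm2b, egg nucleoplasmins, held 11.1% and 31.1% at 0 hpf and 0.648% and 7.09% at 6 hpf, while npm1a, the nucleolar form, rose from 42.3% to 80.5%. Alpha and beta tubulins were counted as 1 family, so a shift between an alpha and a beta gene is not an exchange of forms. In it the beta gene tubb4b went from 51.2% ± 1.04 to 16.5% ± 0.24. Another beta gene, tubb2b, reached 29.3% and the alpha gene tuba8l4 reached 42.6%. The summed level of the tubulins was 1556 ± 62.3 and 1555 ± 15.4 TPM.

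Further exchanges were found in families picked after their values had been seen. mcm3l, an egg paralog of the replicative helicase subunit Mcm3, held 99.6% ± 0.21 of its pair at 0 hpf and 10.1% ± 8.44 at 6 hpf, and mcm6l 99.8% ± 0.14 and 26.6% ± 2.51. The pair sums were 132 ± 3.76 and 121 ± 17.7 TPM for mcm3 and 154 ± 2.98 and 98.4 ± 6.06 TPM for mcm6. The replication list above holds mcm3 and mcm6 as its 2 risers and leaves out mcm3l and mcm6l. hk2 held 99.7% ± 0.14 of hexokinase TPM in the egg and 4.35% ± 1.34 at 6 hpf, when hkdc1 held 86.8% ± 2.73, at summed levels of 57.3 ± 6.96 and 61.9 ± 8.84 TPM. The thymosin gene tmsb5, which encodes an actin-binding peptide, went from 98.4% ± 0.20 to 12.5% ± 0.53, with tmsb4x at 68.8% ± 1.64. The summed level of the thymosins fell from 1224 ± 15.2 to 289 ± 12.2 TPM. Among sestrins, stress-responsive regulators of growth signalling, sesn2 gave way to sesn3, which went from 0.198% ± 0.06 to 96.0% ± 0.42.

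**Figure D4:**
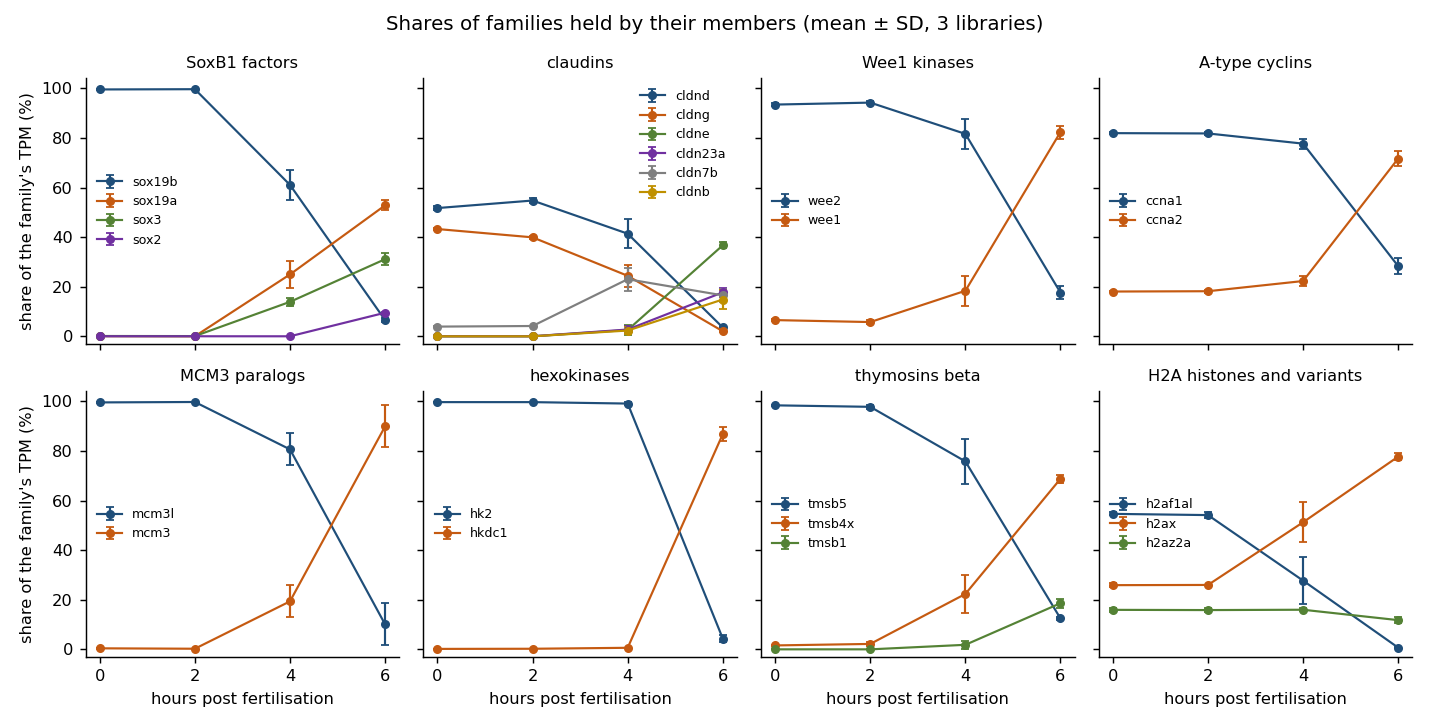
Share of the summed TPM of 8 gene families held by single members, in percent, against hours post fertilisation, as mean ± SD of 3 libraries. These are 8 of the 32 families examined, and the MCM3, hexokinase and thymosin families were picked after their values had been seen. In the 8 shown the egg member leads at 0 and 2 hpf and has lost the lead at 6 hpf. Examples are sox19b from 99.6% to 6.55%, hk2 from 99.7% to 4.35% and h2af1al from 54.6% to 0.686%. In other families, such as the B-type cyclins and Cdc25 phosphatases, the leading member stayed the same. Shares do not show level, and the summed TPM fell in some of the families shown, such as the claudins and A-type cyclins.

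To see how common such exchanges were without picking families, genes whose symbols differ only in a final a or b were paired. In zebrafish this naming often marks duplicates from the ancestral fish genome duplication, although not in every case. Of 2802 pairs, 824 summed to at least 10 TPM in every 0 and 6 hpf library. In 167 of them (20.3%) the member holding most of the pair's TPM in every 0 hpf library was the minor one in every 6 hpf library. In 401 pairs the share moved by under 10 percentage points, and in 60 of the 167 it moved by 50 points or more. In 45 of the 167 pairs 1 member rose and the other fell, and in 71 the summed level stayed within 2-fold. None of the 167 had changed over in every library at 2 hpf and 33 had at 4 hpf. With a minimum of 20 TPM the share was 18.8%, or 102 of 543 pairs.

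The strongest exchange was in depdc7a and depdc7b, where the a member went from 0.415% ± 0.236 to 96.8% ± 0.32 of the pair. p4ha1a and p4ha1b, subunits of collagen prolyl hydroxylase, went from 0.139% to 94.1% for the a member. cers2a and cers2b, ceramide synthases, went the other way, with the a member at 99.4% ± 0.51 and then 5.93% ± 0.26, that is cers2a from 76.9, 73.2 and 77.3 TPM to 4.01, 4.80 and 4.26 TPM while cers2b reached 67.2, 74.1 and 65.9 TPM. hnf4b was the egg's form and hnf4a the form at 6 hpf, with the a member at 0.407% ± 0.285 and then 90.4% ± 0.78. hnf4b itself was not called, at 17.8, 24.5 and 20.9 TPM and then 11.41, 11.96 and 9.80 TPM.

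**Figure D5:**
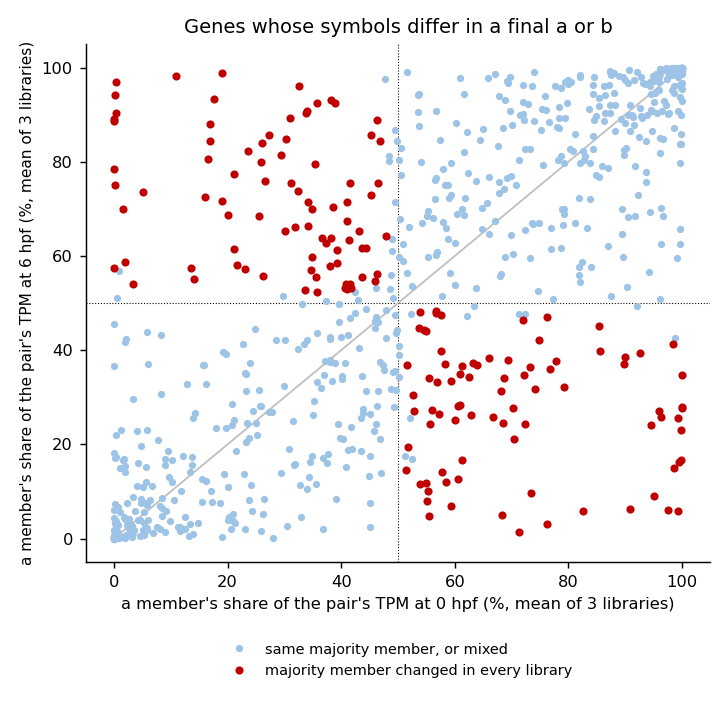
Share of a pair's TPM held by the a member at 6 hpf against that at 0 hpf, in percent, mean of 3 libraries, for 824 pairs of genes whose symbols differ in a final a or b. The grey diagonal is no change, the dotted lines mark 50%, and the 167 red points in the upper left and lower right are pairs whose majority member changed in every library.

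The 2 and 4 hpf libraries show when the change from 0 to 6 hpf was made. Of the 2644 genes that rose, 8 had passed 50% of their log2 change by 2 hpf, 889 passed it between 2 and 4 hpf and 1747 after 4 hpf. Of the 8447 that fell the numbers were 20, 2333 and 6094. The median gene that fell had made 36.0% of its log2 change by 4 hpf, and the median gene that rose 28.1%. The times share the 0 and 6 hpf libraries, so these percentages are descriptions of the same contrast.

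Lists differed in their timing. For the 9 activator genes that rose the median at 4 hpf was 84.9% of the final log2 change, and for the 5 Nodal pathway genes 75.0%. Mesoderm and endoderm regulators had made 25.9% and enveloping layer genes 25.8%. Of 50 oxidative phosphorylation genes that fell 37 had passed 50% by 4 hpf (median 82.3%), whereas 0 of 14 glycolytic genes had (29.0%). Timing was taken from TPM as deposited only. Relative to the typical gene 9 of 85 oxidative phosphorylation genes and 11 of 20 glycolytic genes fell, so most of the former falls do not hold there. The 37 ribosomal protein genes that rose all passed 50% of their change after 4 hpf. As deposited they stood slightly below their egg level at 4 hpf (median -14.4% of the final change). Structural, mitochondrial and miR-430 RNAs held 41.1% of TPM at 4 hpf against 30.0% at 0 hpf, which lowers the share of all other genes. Whether ribosomal protein genes were below their egg level at 4 hpf relative to the typical gene was not tested.

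Genes close to absent at one of the times were set apart by level: under 1 TPM in all libraries of one time and at least 10 TPM in all of the other. New genes at 6 hpf numbered 459 and made up 2.5% ± 0.144 of TPM there, and lost genes numbered 267 and had held 0.608% ± 0.011 at 0 hpf. These classes were chosen by level, so their calls carry no further support. With a limit of 2 TPM in place of 1 the numbers were 560 and 768, so the lost class depends strongly on where the limit is set. Of the new genes 279 were at 1 TPM or more in every 4 hpf library and 2 in every 2 hpf library. New genes were 459 of all 32520, and the lists were chosen with earlier results known, so counts by list are descriptions only. The new class held 14 of 28 mesoderm and endoderm regulators in the table, 14 of 30 enveloping layer genes and 8 of 22 organizer genes. Among its abundant members outside the lists were polr3gla, a subunit of RNA polymerase III, at 221, 330 and 273 TPM, and fbp1b, a gluconeogenic enzyme, at 240, 163 and 181 TPM.

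The oocyte table was normalised separately, so levels are set side by side and not tested. Of the 459 new genes 211 were under 1 TPM in every oocyte library of stages I to IV. In stage I 393 were under 1 TPM in both libraries, and in stage IV, the latest, 228 were. In stage IV 39 were at 10 TPM or more in both libraries. Among those krt5 was at 360 TPM in stage IV against 0.63 TPM at 0 hpf and 271 TPM at 6 hpf, and atp1b1a at 276, 0.32 and 112 TPM. Markers of the follicle cells that surround the oocyte moved with these values: their summed level was 228 to 255 TPM in stage IV, 6.57 to 11.1 TPM in stage I and 0.42 to 0.77 TPM at 0 hpf, and their part in the stage IV levels was not tested. Of the 267 lost genes 162 were at 10 TPM or more in both stage I libraries and 144 in both stage IV libraries. hsd3b7, a steroid and bile acid enzyme, was at 141 TPM in stage I, 143 TPM in stage IV, 101 TPM at 0 hpf and 0.51 TPM at 6 hpf, and f3b, a tissue factor gene, at 76.2, 39.1, 90.6 and 0.61 TPM.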

How the data were processed

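RNA was measured in 12 embryo libraries, 3 each at 0, 2, 4 and 6 hpf, and 0 and 6 hpf were compared. The authors deposited TPM per gene. Per the submitters' processing notes, STAR 2.7.3a, RSEM and the danRer11 build were used, and reads were 75 bp long and single. The annotation release is not given in the sources used here. TPM keeps no depth, so the precision of each library is unknown. Genes at 1 TPM or more in at least 3 embryo libraries were fitted on log2(TPM + 1) with limma 3.58.1 in R 4.3.3, in 1 fit over the 12 libraries with a mean trend, and p-values were adjusted over 16328 genes. Other measures used exact permutation tests. Median-of-ratios factors came from 10222 genes above 1 TPM in every library. The fit was checked on simulated data. Small RNAs were classed by the reference symbols that matched 29201 identifiers. Members, lists and families were chosen with earlier results of these data known. Genes named were the 10 largest rises, falls, gains and losses, list leaders and family members. The 10 most abundant entries with a log2 change under 0.5 in size were also taken, and others were chosen after their values were seen. The knockdown table was not used here, and a few genes are not reported here.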

Additional observations from a re-analysis of the deposited data

How the results depend on the processing

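Scaling was the choice that mattered most. With median-of-ratios scaling 4700 genes rose and 4297 fell, and with a fold minimum of 4 in place of 2 the numbers were 1466 and 4385. Counts stayed within 1.5 times those reported under a pseudocount of 0.1 TPM, no filter, a filter at 5 TPM, no fold minimum, no trend, the 0 and 6 hpf libraries alone, and rescaling without mitochondrial and miR-430 genes or, chosen after seeing the data, without all small structural RNAs. Leaving out each embryo library gave 2565 to 2662 rises and 8261 to 8617 falls. Under median-of-ratios scaling the log2 change of some named genes went from negative to positive. Each of these was called at 2-fold under only 1 of the scalings, so no call was reversed. The scaled log2 changes were 0.11 for ctsba, 0.11 for cldn7b, 0.27 for cdh1, 0.32 for prpf38b, 1.15 for slbp, 1.16 for actb1, 1.19 for eif4e1c and 1.25 for kpna4. They were 1.32 and 1.33 for 1 copy each of hist1h2a11 and zgc:112234, and 1.32, 1.33, 1.33, 1.34 and 1.34 for 5 copies of 7SL. By construction that scaling raises changes throughout, by less for genes near 1 TPM. Among the same named results 27 other calls were lost and 26 gained under it.

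The share in common with the egg at 6 hpf was 52.5% without small structural, mitochondrial and miR-430 RNAs, and 61.9% to 63.5% when a 0 or 6 hpf library was left out. The change in the number of genes holding 50% of TPM was -219, or -817 without those RNAs and -263 without mitochondrial and miR-430 genes, and -230 to -213 without single libraries. The change in the mitochondrial mRNA share lay between -0.105 and 0.0935 percentage points without single libraries.

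With the replicate number as a block 2647 genes rose and 8449 fell, and no named gene changed its call. Deviations of libraries with the same number correlated at 0.086, 0.092 and 0.144, each library correlating best with its own number, and nothing in the labels says that the numbers pair the libraries, so the block is given here only.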
